A study of Mus musculus with 24 samples.

Results

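The genes described here are 8 chemokines, Ccl1, Ccl3, Ccl4, Ccl5, Ccl22, Xcl1, Cxcl9 and Cxcl10, out of 22009 named entries in the deposited table. They were picked by name as chemokines made in activated T cell cultures, with their values in these libraries already known. Changes from rest and between times in culture are therefore given for the 8 as a description without a test, and tests are kept for differences between culture conditions.

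CD4+ T cells of wild-type (WT) adult C57BL/6 mice were taken from the spleen by negative selection, and cells of 6 mice were pooled. All cultures received anti-CD3 and anti-CD28, which stand in for antigen and costimulation: Th0 cultures received nothing else, Th1 cultures also IL-12 with an antibody to IL-4, and Th2 cultures also IL-4 with antibodies to IL-12 and IFN-γ (anti-IFN-γ). RNA was sequenced from 2 libraries of resting cells, from 1 library for each of the 3 conditions at 4, 8, 12, 16, 20 and 24 h, and from 1 library each at 0, 1, 2 and 4 h with actinomycin, which blocks transcription, after 16 h of stimulation in a condition that the labels do not give. The labels speak of purified CD4+ cells and the methods of naive cells. The tag in the labels of the resting libraries differs from that of the cultures. The paper states that cells were taken out of the cultures at each time point, so libraries of 1 condition may not come from separate cultures. Below, a culture means 1 such library. The p-values between conditions rest on no replicate cultures: their spread is what the terms for condition and time leave over. No p-value below measures the spread between animals.

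Chemokines are small secreted proteins that draw leukocytes carrying the matching receptor. Ccl3, Ccl4 and Ccl5 are inflammatory chemokines, and Ccl3 and Ccl5 can signal through Ccr1. Xcl1 draws cross-presenting dendritic cells through Xcr1, Ccl1 acts on Ccr8, and Ccl22 shares Ccr4 with Ccl17. Cxcl9 and Cxcl10 are classical products of interferon-stimulated cells and act on Cxcr3, a receptor of Th1 cells. Because these are bulk RNA values, fewer cells making a chemokine and less RNA per cell cannot be told apart.

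In the mouse genome (GRCm38, GENCODE M21) 4 of the 8 genes lie on chromosome 11: Ccl3 at chr11:83647844-83649355 on the minus strand, Ccl4 at chr11:83662584-83664683 on the plus strand, Ccl5 at chr11:83525778-83530518 on the minus strand, and Ccl1, with its longest transcript model, at chr11:82176657-82305690 on the minus strand. Cxcl9 (chr5:92321347-92328079) and Cxcl10 (chr5:92346638-92348889) lie close together on the minus strand. Ccl22 is at chr8:94745590-94751699 on the plus strand and Xcl1 at chr1:164931644-164935527 on the minus strand.

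Upstream sequences are shown for Cxcl10, Cxcl9 and Ccl22, the 3 genes that differed between Th2 and both other conditions. They are RefSeq promoter sequences (GRCm38.p6), written 5′ to 3′ on the gene's strand and ending before the first annotated transcript. Capitals mark matches to a motif in the 250 bases before the start. The motifs were searched on both strands, except NF-kappaB, which was searched on the gene's strand only. The stretches are chr5:92348890-92349139 for Cxcl10, chr5:92328080-92328329 for Cxcl9 (both minus strand) and chr8:94745434-94745589 for Ccl22 (plus strand), which ends at -95, where the GENCODE gene begins.
Cxcl10: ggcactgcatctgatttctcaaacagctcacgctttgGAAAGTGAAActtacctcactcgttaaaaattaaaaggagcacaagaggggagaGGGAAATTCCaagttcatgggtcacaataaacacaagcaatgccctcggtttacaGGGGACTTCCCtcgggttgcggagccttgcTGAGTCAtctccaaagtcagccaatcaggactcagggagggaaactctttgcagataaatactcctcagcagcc
Cxcl9: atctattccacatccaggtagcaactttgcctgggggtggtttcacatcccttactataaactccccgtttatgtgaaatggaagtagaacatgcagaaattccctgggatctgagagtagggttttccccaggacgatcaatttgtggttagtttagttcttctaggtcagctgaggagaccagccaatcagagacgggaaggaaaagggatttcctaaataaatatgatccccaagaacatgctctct
Ccl22: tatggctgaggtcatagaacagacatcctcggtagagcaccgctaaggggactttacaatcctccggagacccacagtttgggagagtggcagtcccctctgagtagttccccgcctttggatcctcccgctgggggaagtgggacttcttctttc

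The Cxcl10 stretch held 1 core of the interferon-stimulated response element (ISRE, GAAA and GAAA 2 bases apart) starting 213 bases before the start, at -213, 3 NF-kappaB consensus matches at -159, -104 and -103, of which the last 2 overlap, and 1 AP-1 match (TGANTCA) at -74. ISRE cores were present in 2.98% of 32851 promoters of the same length, NF-kappaB matches in 5.00% and AP-1 matches in 6.75%. No match to these 3, to the STAT motifs (TTC and GAA, 3 bases apart for the GAS element, in 7.02% of promoters, or 4 apart for STAT6, in 5.85%) or to a pair of NFAT cores (GGAAA and GGAAA 4 bases apart, in 0.177%) was found in the windows of Cxcl9, Ccl22, Ccl3 or Xcl1. The Ccl1 window held 1 NF-kappaB match at -196. Of the 8 genes, 6 had a promoter entry, Ccl4 and Ccl5 being the others. A match is a string of letters and not a site known to be bound, and the lack of one says only that these letters are not in the window. For NF-kappaB the matches, their share of promoters and their absence hold for the gene's strand only.

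The second set of sequences bears on the actinomycin libraries. TATTTAT, the core of AU-rich elements that mark many short-lived mRNAs, stood 1 time each in the 3′ untranslated regions (UTRs) of Ccl3, Ccl4, Xcl1 and Ccl22, with 3 bases on either side shown here and the heptamer in capitals.
Ccl3, chr11:83648011-83648023, minus strand: gacTATTTATtct
Ccl4, chr11:83664550-83664562, plus strand: tatTATTTATgtt
Xcl1, chr1:164931650-164931662, minus strand: aaaTATTTATtat
Ccl22, chr8:94750827-94750839, plus strand: ttaTATTTATata

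Among 3′ UTRs within 20% of the same length, the heptamer was present in 9.43% for Ccl3, 8.02% for Ccl4, 3.40% for Xcl1 and 37.8% for Ccl22, whose UTR is much longer. The shorter motif ATTTA occurred 5 times in the 409 bases of the Ccl3 UTR and 2 times in the 302 bases of Ccl4, 1 time in the 141 bases of Xcl1, 2 times in the 1813 bases of Ccl22, 3 times in the 2452 bases of Cxcl9 and 3 times in the 996 bases of Cxcl10. The median of UTRs of like length was 0 for Ccl3, Ccl4 and Xcl1, 3 for Ccl22, 4 for Cxcl9 and 1 for Cxcl10, and Ccl1 and Ccl5 held none. No TATTTAT was found in the UTRs of Ccl1, Ccl5, Cxcl9 or Cxcl10.

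The libraries held between 17512385 and 33017133 mapped reads, a number recovered from the RPKM values (reads scaled to transcript length and to the mapped reads of the library). The 6 T cell markers Cd3e, Cd3d, Cd3g, Cd4, Cd28 and Cd5 summed to between 1407 and 1411 RPKM at rest and to between 905 and 1253 RPKM in the cultures. RNA of other cells was present and fell with time. The 12 macrophage and monocyte markers summed to between 621 and 641 RPKM at rest, between 54.1 and 85.9 RPKM at 4 h and between 8.87 and 14.9 RPKM at 24 h. The 7 NK cell markers summed to between 161 and 163 RPKM at rest, between 111 and 218 RPKM at 4 h and between 46.4 and 67.2 RPKM at 24 h, and the 6 B cell markers to between 63.5 and 73.4 RPKM at rest and between 8.96 and 18.4 RPKM at 24 h. None of the markers in these lists was at 0 throughout a group. Dendritic cell markers (8 genes) summed to at most 14.6 RPKM, Cd8a and Cd8b1 to at most 15.7 RPKM and neutrophil markers (5 genes) to at most 9.09 RPKM in the time course. The part of these cells in the chemokine values was not tested.

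At rest, Ccl5 stood far above the others, at 159 and 163 RPKM. Ccl3 (26.7 and 30.2 RPKM), Ccl4 (20.2 and 23.4 RPKM) and Xcl1 (20.1 and 19.8 RPKM) followed, and Ccl4 and Xcl1 did not differ beyond the gap between the 2 libraries. Cxcl10 was at 4.35 and 6.82 RPKM, Cxcl9 at 1.34 and 1.52 RPKM, Ccl1 at 0.82 and 0.29 RPKM and Ccl22 at 0.48 and 0.44 RPKM. Ccl1 and Ccl22, the lowest, overlapped.

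Over the 18 cultures the order changed. Xcl1 had the highest median (353 RPKM), followed by Ccl4 (197 RPKM), Ccl3 (73.6 RPKM) and Ccl1 (67.0 RPKM), then Ccl22 (22.0 RPKM), Ccl5 (21.3 RPKM), Cxcl10 (14.6 RPKM) and Cxcl9 (1.71 RPKM). The ranges over the cultures overlapped between neighbours in this order. The 8 genes together summed to 233 and 245 RPKM at rest and to between 284 and 1429 RPKM in the cultures, highest in the Th1 culture at 12 h. Xcl1 alone made up 8.63% and 8.08% of that sum at rest and between 19.0% and 57.3% of it in culture.

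**Figure D1:**
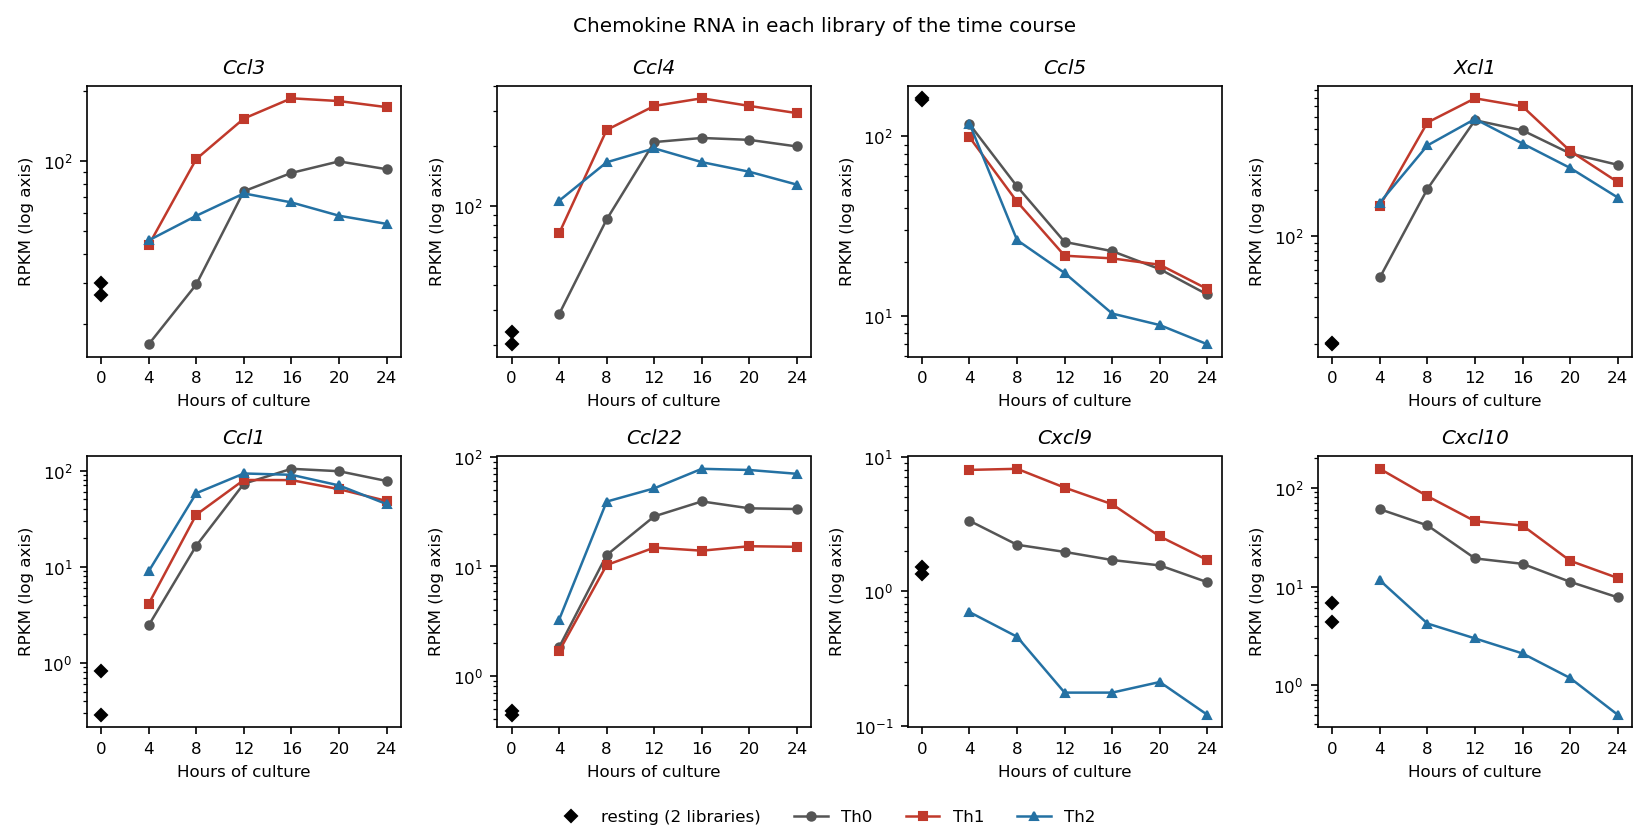
RPKM (log axis) of the 8 chemokines against hours of culture, with the 2 resting libraries as diamonds at 0 h and 1 point per library for Th0, Th1 and Th2. Ccl5 starts at 159 and 163 RPKM and falls in each condition, Ccl22 is highest in Th2 and Cxcl9 and Cxcl10 are lowest in Th2 at each time point, and the Ccl3, Ccl4, Xcl1 and Ccl1 curves of Th0 start lowest.

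The time-course plot separates 3 shapes. Ccl1, Ccl22, Ccl4 and Xcl1 were above both resting libraries in 18 of 18 cultures, and Ccl3 in 16 of 18. Ccl5 was below both resting libraries in 18 of 18 cultures, so it was not a chemokine that activation raised in these data, and the name of the group does not hold for it. Cxcl9 and Cxcl10 were above or below rest depending on the condition.

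Among cultures, 24 h was compared with 4 h, the last and the first time in culture, with limma on log2(RPKM + 0.5) for all genes averaging 1 RPKM or more, with the condition as a factor. The threshold of an adjusted p under 0.05 and a 2-fold change was passed by 26.3% of 10737 genes, 13.3% higher and 13.0% lower at 24 h. Since the 8 were picked as chemokines made in these cultures, they are not counted against that share. Their differences with their errors are given without p-values.

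Xcl1, which had the highest median of the 8 in culture, rose and fell within the day. Ccl5 and Cxcl10 were above it in Th0 at 4 h and Ccl4 in Th1 at 24 h. In Th0 Xcl1 was at 53.9, 203, 570, 489, 346 and 292 RPKM from 4 to 24 h, in Th1 at 158, 550, 791, 700, 359 and 225 RPKM, and in Th2 at 166, 390, 580, 401, 278 and 179 RPKM. Each condition had its highest value at 12 h, and by 24 h that value had dropped 1.95-fold in Th0, 3.51-fold in Th1 and 3.24-fold in Th2. The difference between 24 h and 4 h was 1.02 on the log2 scale (SE 0.33). It rested on Th0: without the Th0 cultures it was 0.31. In the annotation, 10.8% of the 50-base windows of Xcl1 also occur in Gm20743, so reads of these 2 genes may have been shared.

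Ccl3 and Ccl4, which lie side by side on chromosome 11, rose to a plateau in Th0 and Th1, whereas in Th2 both were highest at 12 h and lower again at 24 h. Ccl3 was at 16.4, 29.6, 74.4, 89.2, 99.9 and 92.5 RPKM in Th0, at 43.7, 102, 153, 186, 181 and 171 RPKM in Th1 and at 45.8, 58.4, 72.8, 66.6, 58.4 and 53.9 RPKM in Th2. Th1 was highest from 8 h on, and at 4 h Th0 alone was below both resting libraries. Ccl4 was at 28.6, 85.4, 209, 219, 215 and 199 RPKM in Th0, at 72.7, 241, 318, 347, 318 and 292 RPKM in Th1 and at 106, 166, 194, 166, 148 and 128 RPKM in Th2. The difference between 24 h and 4 h over the 3 conditions was 1.55 for Ccl3 (SE 0.33) and 1.68 for Ccl4 (SE 0.35) on the log2 scale. It came from Th0 and Th1: for Ccl3 the ratio of 24 h to 4 h came to 5.64 (Th0), 3.91 (Th1) and 1.18 (Th2), and for Ccl4 to 6.96, 4.02 and 1.21. Without the Th2 cultures the log2 differences were 2.21 and 2.39, and without the Th0 cultures 1.09 and 1.13. The ratio of Ccl4 to Ccl3 RPKM was 0.76 and 0.77 at rest and between 1.66 and 2.88 in the cultures, so the resting order of the pair was turned in each of the 18 cultures.

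Ccl1, the Ccr8 ligand, was low at rest and rose steeply after 4 h. It was at 2.45, 16.5, 72.9, 104, 98.4 and 77.9 RPKM in Th0, at 4.11, 34.7, 79.7, 79.5, 64.0 and 48.3 RPKM in Th1 and at 8.96, 58.1, 93.2, 90.3, 70.0 and 44.8 RPKM in Th2. The difference between 24 h and 4 h was 3.46 on the log2 scale (SE 0.38), 2.83 without the Th0 cultures and 4.07 without the Th2 cultures. Ccl22 followed a similar course to a plateau from 16 h, with a difference of 3.65 (SE 0.24).

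Among the cultures Cxcl10, Cxcl9 and Ccl5 were higher at 4 h than at 24 h in each condition, Ccl5 being below rest already at 4 h. Cxcl10 fell by 3.37 on the log2 scale between 4 and 24 h (SE 0.16) and Cxcl9 by 1.36 (SE 0.24). Ccl5, a chemokine that memory and effector T cells and NK cells are known to express, was at 117, 52.7, 25.8, 23.0, 18.2 and 13.2 RPKM in Th0, at 98.9, 43.3, 21.7, 20.9, 19.3 and 14.1 RPKM in Th1 and at 118, 26.5, 17.4, 10.3, 8.91 and 6.96 RPKM in Th2. Most of its fall came between 4 and 12 h, and it fell by 3.28 between 4 and 24 h (SE 0.20). The NK cell marker list moved the same way, with 5 of 7 genes lower at 24 h than at 4 h (median -1.80). Among them were Gzma (-2.07) and Klrb1c (-1.80). In the macrophage list 8 of 8 tested genes were lower (median -1.81). Of all genes tested, 13.0% were lower. The part of NK cells and macrophages in the fall of Ccl5, Cxcl9 and Cxcl10 was not tested.

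The conditions were compared over the 6 time points, with the time point as a factor. Between Th2 and Th0, 3 of the 8 chemokines passed, 1 higher and 2 lower, against a background of 2.01% of all genes tested, 0.186% higher and 1.83% lower. Between Th2 and Th1, 4 passed, 1 higher and 3 lower, against 1.96% of all genes, 0.568% higher and 1.39% lower. Between Th1 and Th0, 3 passed, all higher in Th1, against 0.494% of all genes, 0.177% higher and 0.317% lower. The median log2 difference of the 8 was 0.13, -0.65 and 0.74 in these comparisons, where that of all genes was 0.00, 0.02 and -0.01. The comparisons share their libraries in pairs, so their counts are not independent, and the 8 were picked with these values known.

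**Figure D2:**
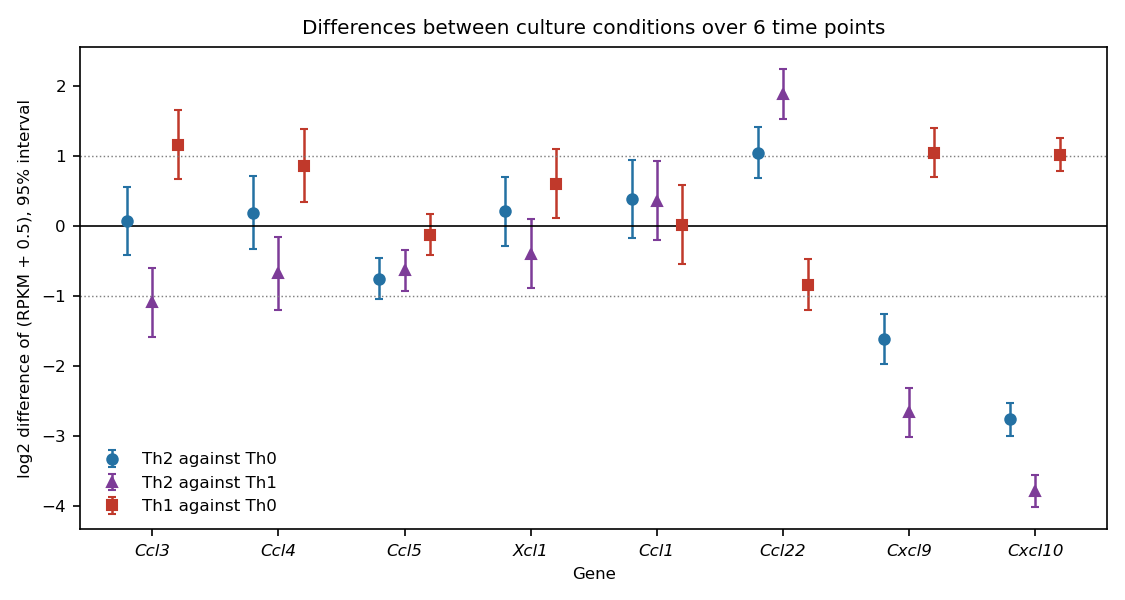
log2 difference of RPKM + 0.5 for each chemokine between 2 culture conditions over 6 time points, with points for the fitted difference and bars for its 95% interval; dotted lines mark 2-fold. Cxcl10 lies lowest for both Th2 comparisons, at -2.77 and -3.79, and Ccl22 highest, at 1.05 and 1.89.

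Cxcl10 showed the largest difference of the 8. In Th1 it was at 156, 82.4, 45.9, 41.5, 18.2 and 12.2 RPKM, in Th0 at 60.8, 41.6, 19.3, 17.0, 11.2 and 7.76 RPKM and in Th2 at 11.5, 4.21, 2.98, 2.09, 1.18 and 0.50 RPKM. The order Th1, Th0, Th2 held at 6 of 6 time points. Th2 was lower than Th0 by a log2 difference of -2.77 (SE 0.11, limma adjusted p = 2.32e-10) and lower than Th1 by -3.79 (SE 0.11, limma adjusted p = 1.84e-12). Th1 was above Th0 by 1.02 (SE 0.11, limma adjusted p = 7.71e-05). At 4 h all 3 conditions were above both resting libraries, and from 8 h on each Th2 culture was below both of them. In the annotation 3.59% of the 50-base windows of Cxcl10 also occur in Art3.

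Cxcl9, its neighbour on chromosome 5, had the same order at a lower level. In Th1 it was at 7.96, 8.11, 5.88, 4.43, 2.55 and 1.71 RPKM, in Th0 at 3.34, 2.21, 1.96, 1.71, 1.56 and 1.17 RPKM and in Th2 at 0.70, 0.46, 0.18, 0.18, 0.21 and 0.12 RPKM. The order Th1, Th0, Th2 again held at 6 of 6 time points, with 137 to 648 reads behind each Th1 value and 9 to 40 behind each Th2 value. The differences were -1.62 for Th2 against Th0 (SE 0.17, limma adjusted p = 5.49e-06), -2.67 for Th2 against Th1 (SE 0.17, limma adjusted p = 2.24e-08) and 1.05 for Th1 against Th0 (SE 0.17, limma adjusted p = 0.00237). Since 0.5 was added to each RPKM value, these differences understate the change of a gene this low, and the ratio of Th2 to Th1 RPKM was between 0.0301 and 0.0881 at single time points. The ratio of Cxcl10 to Cxcl9 RPKM was between 4.13 and 19.6 over the 18 cultures.

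Genes of the interferon-γ pathway moved with this pair. Of 9 genes of that list, 4 were lower in Th2 than in Th0 and none was higher, against 1.83% of all genes lower. In Th2 against Th1, 4 were lower and none higher, against 1.39% of all genes lower. Irf1, a transcription factor that interferon-γ induces, was lower in Th2 than in Th0 by -2.20 and than in Th1 by -1.96 (limma adjusted p = 1.41e-08 and 4.97e-08). Tbx21, the Th1 master regulator, was lower by -1.78 and -2.23 (limma adjusted p = 0.0013 and 0.000248). Ifng itself was higher in Th1 than in Th0 by 3.15 (SE 0.26, limma adjusted p = 8.68e-06), while its difference of 0.66 between Th2 and Th0 did not pass (limma adjusted p = 0.0679). Ifng RNA was at 60.5 to 75.0 RPKM in the Th2 cultures, and their Irf1, Cxcl9 and Cxcl10 values were the lowest of the 3 conditions at each time point. IL-4, anti-IL-12 and anti-IFN-γ were given together and to Th2 alone, so their parts in these differences cannot be told apart. Of 13 activation factors of the NF-kappaB, AP-1, NFAT and IRF families, 1 differed between Th2 and the others, Jun, which was lower by -1.34 against Th0 and -1.46 against Th1 (limma adjusted p = 1.76e-06 and 6.87e-07).

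Ccl22 went the other way. In Th2 it was at 3.26, 39.2, 51.8, 78.2, 76.2 and 70.4 RPKM, in Th0 at 1.82, 12.7, 28.7, 39.3, 34.0 and 33.5 RPKM and in Th1 at 1.68, 10.3, 14.9, 13.9, 15.3 and 15.1 RPKM. The order Th2, Th0, Th1 held at 6 of 6 time points. Th2 was above Th0 by 1.05 (SE 0.17, limma adjusted p = 0.000373) and above Th1 by 1.89 (SE 0.17, limma adjusted p = 1.3e-06), whereas Th1 lay below Th0 by -0.84 (SE 0.17, limma adjusted p = 0.0139), short of 2-fold. Without the 8 h time point the difference between Th2 and Th0 was 0.95, also short of 2-fold.

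Ccl17, the other Ccr4 ligand, was the only one of 9 further ligands tested that passed in the 3 comparisons of conditions. It was higher in Th2 than in Th0 by 1.97 (SE 0.26, limma adjusted p = 5.25e-05) and than in Th1 by 3.09 (SE 0.26, limma adjusted p = 5.12e-07), and lower in Th1 than in Th0 by -1.12 (limma adjusted p = 0.0305). Its level was between 3.08 and 11.7 RPKM in Th2 and at most 3.22 RPKM in Th0 and 1.14 RPKM in Th1. Of 33 other ligands listed, 31 were in the table and 9 averaged 1 RPKM or more. In the list of 8 genes around IL-4 and STAT6, Gata3, the Th2 master regulator, and Il4ra, a chain of the IL-4 receptor, were higher in Th2 than in Th1 (1.60 and 1.27, limma adjusted p = 1.24e-06 and 0.0015), and no gene of the list passed between Th2 and Th0.

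Ccl3 was higher in Th1 than in either other condition, by 1.16 against Th0 (SE 0.23, limma adjusted p = 0.0122), and Th2 lay below Th1 by -1.09 (SE 0.23, limma adjusted p = 0.00444). Ccl4 showed differences of 0.87 for Th1 against Th0 (SE 0.24, limma adjusted p = 0.086) and -0.68 for Th2 against Th1 (SE 0.24, limma adjusted p = 0.0866), neither of which passed. The Th1 against Th0 calls lie close to the 2-fold line: without the 12 h time point none of the 3 passed, Ccl3 at 1.19 with an adjusted p of 0.0732 and Cxcl9 and Cxcl10 short of 2-fold at 0.99 and 0.98. The Ccl3 difference between Th2 and Th1 was short of 2-fold without the 20 h (-0.99) or the 24 h time point (-0.98). Of the 7 NK cell markers, 2 were also higher in Th1 than in Th0, against 0.177% of all genes tested. They were Ncr1, by 1.25 (limma adjusted p = 0.00287), and Gzma, by 1.17 (limma adjusted p = 0.00333). At 4 h Ncr1 was at 12.2 RPKM in Th1 and 2.52 RPKM in Th0. The summed NK list ranged from 46.4 to 125 RPKM in Th0, from 56.5 to 218 RPKM in Th1 and from 57.5 to 184 RPKM in Th2, and its part in the Ccl3 difference was not tested.

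The averages over 6 time points hid a crossing of the curves in Ccl3, Ccl4, Xcl1 and Ccl1. At 4 h, Th2 was above Th0 by a ratio of 2.79 for Ccl3 (95% counting interval 2.44 to 3.20), 3.71 for Ccl4 (3.34 to 4.14), 3.07 for Xcl1 (2.81 to 3.36) and 3.65 for Ccl1, for which whole reads could not be recovered. At 24 h the same ratios were 0.58 (0.54 to 0.63), 0.64 (0.61 to 0.68), 0.61 (0.58 to 0.64) and 0.58. Th2 thus led Th0 at 4 and 8 h and trailed it from 16 h on in all 4 genes. The early lead was not particular to Th2, since Th1 also led Th0 at 4 and 8 h in all 4. At 4 h the Th1 to Th0 ratio was 2.66 for Ccl3, 2.55 for Ccl4, 2.93 for Xcl1 and 1.68 for Ccl1. At 24 h it was 0.77 for Xcl1 and 0.62 for Ccl1, but 1.85 for Ccl3 and 1.47 for Ccl4. The intervals given cover counting error within 1 pair of libraries only, and the change of the Th2 to Th0 ratio with time was not tested as such. With only the 12 to 24 h time points, the log2 difference between Th2 and Th0 was -0.50 for Ccl3 (limma adjusted p = 0.00658) and -0.42 for Ccl4 (limma adjusted p = 0.00519), both short of 2-fold, where over all 6 it was 0.07 (limma adjusted p = 0.842) and 0.19 (limma adjusted p = 0.582). For Xcl1 it was -0.32 (limma adjusted p = 0.103) and for Ccl1 -0.28 (limma adjusted p = 0.182) from 12 to 24 h, so neither passed. This window leaves out 4 and 8 h, at which Th2 led, so its p-values are no test of the crossing.

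**Figure D3:**
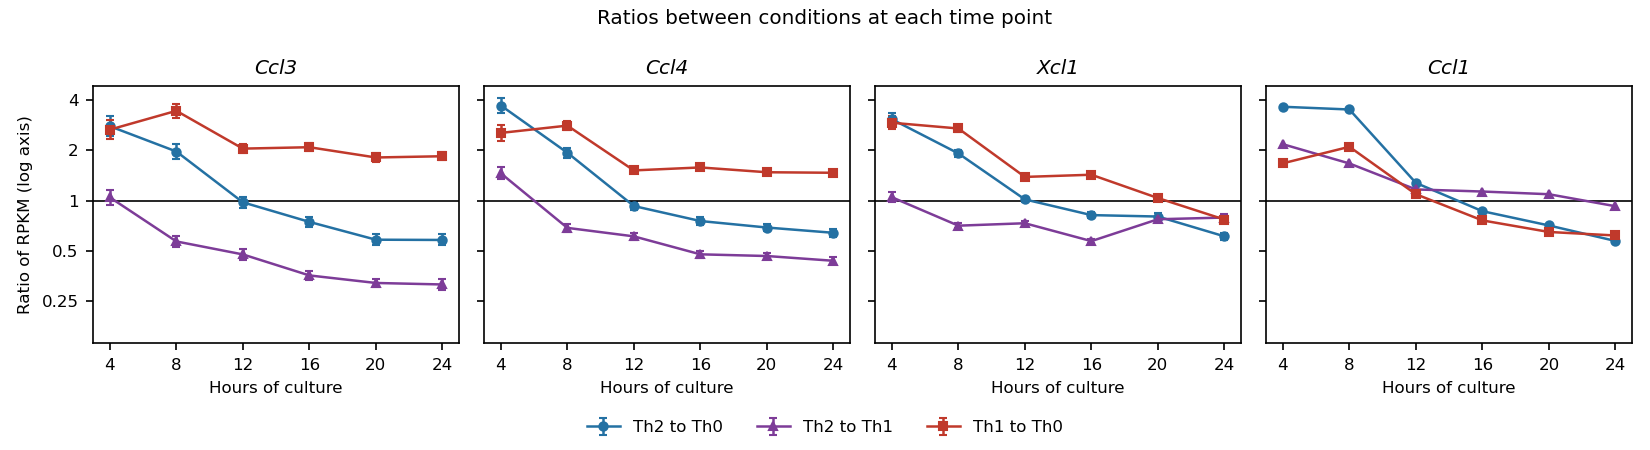
Ratios of RPKM between conditions (log axis) at each time point for Ccl3, Ccl4, Xcl1 and Ccl1, with 95% counting intervals as bars where whole reads could be recovered (not for Ccl1). The Th2 to Th0 ratio falls in each panel from between 2.79 and 3.71 at 4 h to between 0.58 and 0.64 at 24 h.

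Whether the gap between Th2 and Th1 changed per hour of culture was tested with an interaction term. It changed for 1 of the 8 chemokines, Ccl3, at -0.0821 log2 units per hour (SE 0.0143, limma adjusted p = 0.0126), against a background of 1.09% of all genes tested, 0.279% with a rising and 0.810% with a falling difference. Its Th2 to Th1 ratio was 1.05 at 4 h (95% counting interval 0.94 to 1.16), 0.57 at 8 h and 0.32 at 24 h (0.29 to 0.34). The same term did not pass for Ccl4 (-0.0764, limma adjusted p = 0.0543) or Ccl22 (0.0632, limma adjusted p = 0.103). The Ccl3 call was lost without the 4 h time point (limma adjusted p = 0.0591) or the 20 h time point (limma adjusted p = 0.0973).

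Ccl5 was lower in Th2 than in Th0 by -0.75 (SE 0.14, limma adjusted p = 0.00115) and than in Th1 by -0.63 (SE 0.14, limma adjusted p = 0.00609), both short of 2-fold. The 3 conditions were close at 4 h, and Th2 was lowest at the 5 later time points. Xcl1 and Ccl1 did not pass between any 2 conditions. For Xcl1 the 95% interval ran from -0.28 to 0.70 for Th2 against Th0, from -0.89 to 0.09 for Th2 against Th1 and from 0.12 to 1.10 for Th1 against Th0 (limma adjusted p = 0.21), and for Ccl1 from -0.18 to 0.95, from -0.20 to 0.93 and from -0.54 to 0.59.

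Macrophages can also make several of these chemokines. Of the 8 macrophage and monocyte markers tested, Mpeg1 was lower in Th2 than in Th0 (-1.02, limma adjusted p = 0.000116) and Th1 (-1.15, limma adjusted p = 4.29e-05) and Lyz2 lower in Th2 than in Th0 (-1.10, limma adjusted p = 0.00186). The summed list ranged from 14.0 to 65.4 RPKM in Th0, from 14.9 to 54.1 RPKM in Th1 and from 8.87 to 85.9 RPKM in Th2, and the defining markers Csf1r and C1qa were highest in Th2 at 4 h (6.76 and 15.3 RPKM). Its part in the Cxcl9 and Cxcl10 differences was not tested.

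Receptors of these chemokines were measured in the same cells. Ccr4, the receptor of Ccl22, was at 6.85 and 6.46 RPKM at rest, at 36.1, 51.5, 58.5, 68.9, 86.4 and 88.9 RPKM in Th2, at 8.79 to 27.9 RPKM in Th0 and at 5.21 to 16.4 RPKM in Th1. The Th2 cultures did not overlap with the others: Ccr4 was higher in Th2 than in Th0 by 1.99 (SE 0.08, limma adjusted p = 2.04e-10) and than in Th1 by 2.74 (SE 0.08, limma adjusted p = 1.57e-12). Ccr8, the receptor of Ccl1, rose from 2.19 and 2.65 RPKM to between 14.6 and 62.7 RPKM in the cultures, and was higher in Th2 than in Th0 by 1.13 (SE 0.18, limma adjusted p = 0.000305). That call did not hold the 2-fold limit without the 4 h (0.95) or 8 h time point (0.99).

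Cxcr3, the receptor of Cxcl9 and Cxcl10, declined in each condition, from 20.5 and 20.1 RPKM at rest to 6.59, 6.96 and 3.84 RPKM at 24 h in Th0, Th1 and Th2, and its differences between conditions were short of 2-fold (-0.57 for Th2 against Th0, limma adjusted p = 0.00142). Ccr1 was at most 0.68 RPKM and Xcr1 at most 1.00 RPKM, under the level required for a test.

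**Figure D4:**
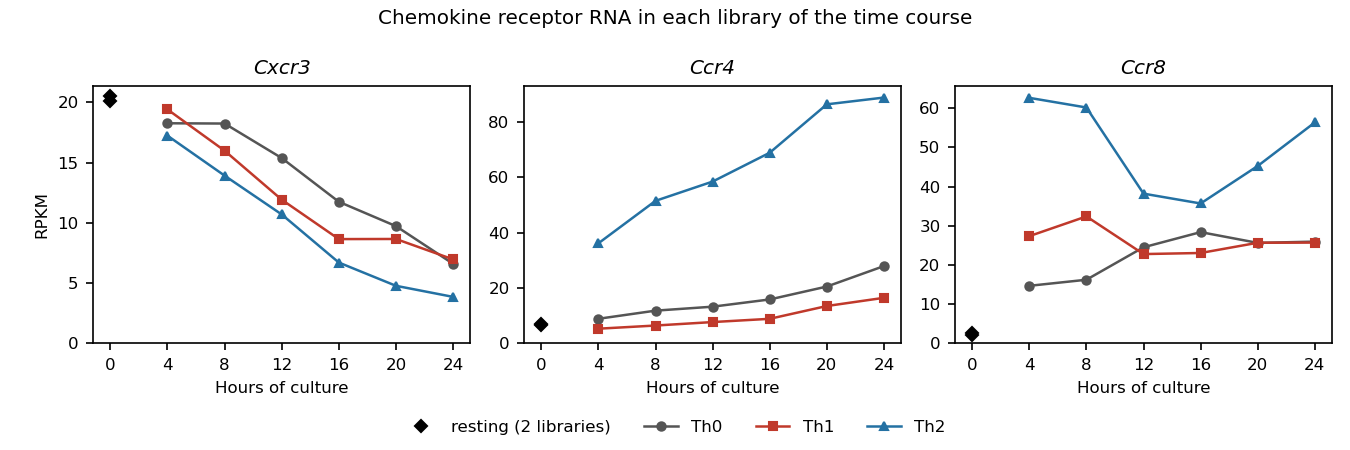
RPKM of the receptors Cxcr3, Ccr4 and Ccr8 against hours of culture, with the 2 resting libraries as diamonds at 0 h and 1 point per culture library. Ccr4 in Th2 (36.1 to 88.9 RPKM) lies above all other libraries, and Cxcr3 falls from 20.5 and 20.1 RPKM at rest to 3.84 to 6.96 RPKM at 24 h.

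Against rest, where the receptors are open to a test, 1 of 14 tested receptors had risen at 4 h and 4 had fallen, against 10.6% of 10897 genes (2.61% up and 7.97% down). The one that rose was Ccr8 (3.36, SE 0.54, limma adjusted p = 0.000165), and the largest fall was that of Ccr3 (-3.81, limma adjusted p = 5.89e-10), from 14.9 and 15.4 RPKM. At 24 h 2 had risen and 9 had fallen, against 30.1% of all genes (12.7% up and 17.4% down). The 2 that rose were Ccr8 (3.55, limma adjusted p = 2.87e-05) and Ccr7 (1.36, limma adjusted p = 2.65e-05), a receptor that keeps T cells in lymphoid tissue, and falls included Cxcr4 (-3.84, limma adjusted p = 2.2e-08) and Cxcr3 (-1.77, limma adjusted p = 4.07e-05). Ccr4 was above both resting libraries at 24 h in each condition (27.9, 16.4 and 88.9 RPKM in Th0, Th1 and Th2). Its fitted difference of 2.29 did not pass, in a fit whose spread includes the differences between conditions. In 10 of 14 alternatives Ccr4 still did not pass. In the others it did, for example without the Th2 cultures (1.61, limma adjusted p = 0.00377). Of the 9 other ligands tested, 1 fell at 4 h, Ccl6 (-1.03, limma adjusted p = 0.0227). At 24 h Ccl20 had risen (2.37, limma adjusted p = 8.36e-05) to between 1.33 and 2.68 RPKM, and Ppbp, Pf4 and Ccl6 had fallen.

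After actinomycin 4 of the 8 chemokines ended well below their starting level. Ccl3 was at 31.2, 23.0, 15.2 and 10.1 RPKM after 0, 1, 2 and 4 h, Ccl4 at 53.6, 49.9, 28.1 and 16.8 RPKM, Cxcl10 at 22.7, 20.0, 9.90 and 7.53 RPKM and Cxcl9 at 5.47, 5.65, 4.65 and 1.72 RPKM. At 4 h these 4 were at 0.32 (95% counting interval 0.27 to 0.39), 0.31 (0.27 to 0.37), 0.33 (no interval, since reads could not be recovered) and 0.31 (0.25 to 0.39) of their 0 h value. Ccl3 and Cxcl10 had dropped to under 0.5 of it by 2 h, while Cxcl9 was still at 0.85.

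Ccl1 (51.4, 72.2, 45.8 and 47.5 RPKM), Ccl22 (28.3, 31.1, 26.7 and 33.4 RPKM) and Ccl5 (7.91, 7.81, 12.3 and 7.49 RPKM) ended at 0.92, 1.18 and 0.95 of the 0 h value, and Xcl1 (159, 189, 139 and 111 RPKM) at 0.70 (95% counting interval 0.65 to 0.75). RPKM values are relative to all remaining mRNA, so a gene at 1 kept pace with the average and was not necessarily stable. The slopes of log2 RPKM on hours were -0.41 for Ccl3, -0.45 for Ccl4, -0.43 for Cxcl9 and -0.42 for Cxcl10, which put them at percentiles 1.31, 0.80, 1.06 and 1.11 among 10571 genes, where the median slope was 0.00. The Cxcl9 slope rested on the 4 h library: without it the slope was -0.12, against -0.52 for Ccl3, -0.46 for Ccl4 and -0.59 for Cxcl10. Xcl1 was at percentile 15.2, Ccl1 at 30.3, Ccl5 at 49.1 and Ccl22 at 62.7. Without the 4 h library the Ccl5 slope was 0.32 and that of Ccl22 -0.04. With 1 library a time the smallest exact two-sided p that 4 time points allow is 0.0833, so no test was made. Of the 4 genes with TATTTAT in the 3′ UTR, shown above, Ccl3 and Ccl4 ended at 0.32 and 0.31 of the 0 h value, Xcl1 at 0.70 and Ccl22 at 1.18, and Cxcl9 and Cxcl10, which have none, at 0.31 and 0.33.

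**Figure D5:**
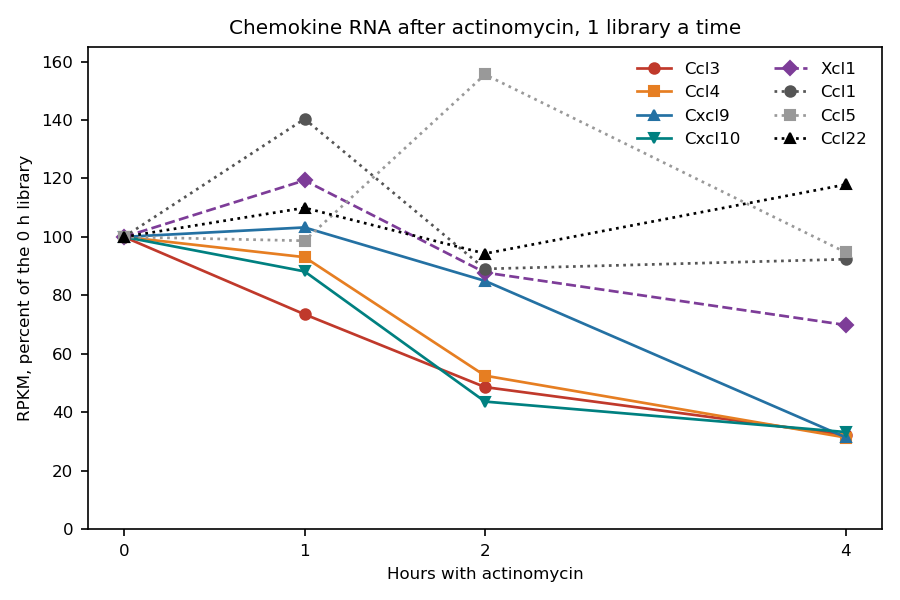
RPKM of the 8 chemokines after 0, 1, 2 and 4 h with actinomycin as a percentage of the 0 h library, 1 library a time, with no error bars. Ccl3, Ccl4, Cxcl9 and Cxcl10 (solid lines) end together at a ratio of 0.31 to 0.33, and Ccl1, Ccl5 and Ccl22 (dotted lines) at 0.92 to 1.18.

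The 0 h actinomycin library did not match the 16 h cultures in level. Ccl3 (31.2 RPKM), Ccl4 (53.6 RPKM), Xcl1 (159 RPKM), Ccl1 (51.4 RPKM) and Ccl5 (7.91 RPKM) were below all 3 of them, whereas Cxcl9 (5.47 RPKM) was above them, the 16 h cultures having 1.71, 4.43 and 0.18 RPKM in Th0, Th1 and Th2. Ccl22 and Cxcl10 lay within the range of the 3. The summed NK cell markers were between 14.6 and 20.5 RPKM in the actinomycin libraries, under the lowest culture of the time course. The macrophage markers summed to between 59.7 and 82.4 RPKM there, above the 13.2 to 32.3 RPKM of the 16 h cultures. Their part in the chemokine values of the actinomycin libraries was not tested.

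The profiles over the 20 libraries of the time course were compared by Pearson's r of log2(RPKM + 0.5), as a description over libraries that share time, condition and a pool of cells. Cxcl9 and Cxcl10 were most like each other among the 8 (r = 0.94), and the gene most like either was Serpina3f, at 0.95 and 0.96, with Ly6i next among genes outside the 8 (0.91 and 0.95). Ccl4 and Xcl1 had an r of 0.94, Ccl1 and Ccl4 0.93, and Ccl1 and Ccl22 0.92. Ccl3 was most like Ccl20 (0.92), then Lta (0.92) and Ccl4 (0.91). Bcat1 was most like Ccl1 (0.99), Crabp2 most like Ccl22 (0.97), Gfod1 most like Xcl1 (0.97), and St6galnac4 most like Ccl4 (0.97), and Grina was among the 3 genes most like Ccl5 (0.98). Ccl5 and Ccl22 ran most opposite of the 28 pairs (r = -0.94).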

How the data were processed

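RNA was sequenced from 24 libraries of splenic CD4+ T cells (20 of the time course, 4 with actinomycin). The authors deposited 1 table of RPKM values per gene symbol with 22010 entries, 1 of which has no gene name and is at 0. The submitters' processing notes name BWA and GRCm38, and the counter, the gene models and the versions are not given in the sources used here.

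Mapped reads per library (17512385 to 33017133) were recovered from the RPKM values of single-transcript genes, which are whole multiples of what 1 read is worth. The number that the most genes gave was taken. In Th0 at 12 h 279 genes gave it and 269 gave the next number. Whole reads, within a tolerance of 0.02, could be recovered for Ccl3, Ccl4, Xcl1 and Cxcl9. Their 95% intervals (exact Poisson for a level, conditional binomial for a ratio) cover counting error only, since PCR copies are not independent molecules.

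Differences were fitted by limma 3.58.1 (R 4.3.3, with an intensity trend) to log2(RPKM + 0.5) of genes averaging 1 RPKM or more, with Benjamini-Hochberg adjustment over all genes tested; called means an adjusted p under 0.05 and at least 2-fold, except for the interaction of condition with hours, which has no fold limit. A fold change on this scale understates the change of low genes. Conditions were compared over 18 cultures with a term for the time point, and 24 h with 4 h over the same cultures with the condition as a factor. Rest was compared with 4 and 24 h over 20 libraries with the time point as the only factor. There the 3 conditions of a time point stood as its libraries, so the spread includes differences between conditions. The test was tried on simulated data with known changes. The paper states no test for these libraries, and its array thresholds for adjusted p and fold change were used, without its filter on the range of intensity.

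The 8 genes and all gene lists were chosen with earlier results of these data known. Named are the 8, their receptors, Ifng, Irf1, Tbx21, Il4 and Gata3, up to 3 called genes a direction of the other ligands, receptors, interferon-γ, IL-4 and activation lists, and for each of the 8 the 3 genes with the most similar profile; some genes that this rule takes in are not reported here and were left out of the list counts. Promoters are from RefSeq (32851 of them, GRCm38.p6) and UTRs from GENCODE M21 (1 per gene). The alternatives tried were a pseudocount of 0.1 or 1, a filter at 5 RPKM or none, 3 other scalings, no intensity trend, only the libraries compared, only 12 to 24 h, and leaving out each time point, condition or resting library. Python 3.11.15 with numpy 2.4.6, pandas 2.3.3, scipy 1.17.1 and matplotlib 3.10.9 was used.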

Additional observations from a re-analysis of the deposited data

Results flagged for a closer look

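Cxcl9 moved in opposite directions from rest in 2 conditions. Each Th1 culture was above both resting libraries (1.34 and 1.52 RPKM) and each Th2 culture below both, with a Th2 mean of 0.308 RPKM over 6 time points. This difference between the conditions' changes from rest was not tested, and it was already known when the gene was chosen. At 24 h the Th1 level (1.71 RPKM, exact Poisson 95% interval 1.43 to 2.02) overlapped the resting libraries within counting error. Th0 cultures fell on both sides of the resting libraries.

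The gap between Th2 and Th1 in Ccl3 RNA changed with hours of culture, by -0.0821 log2 units per hour in the interaction term (SE 0.0143, limma adjusted p = 0.0126). The ratio of Th2 to Th1 was 1.05 at 4 h and 0.316 at 24 h, and it was lower at each time point than at the one before.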

How the results depend on the processing

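Of 1122 alternatives computed over 81 results, 1051 were taken as unchanged, 21 lost a call, 14 gained one, 20 moved a value and 16 turned a direction. Unchanged meant the same direction and side of the threshold for the difference of a gene. For a count of genes it meant a value within a set fold, and for an actinomycin slope a shift under its SE. Single calls could thus change within an unchanged count: between 171 and 265 genes passed for Th2 against Th0, where 216 were reported. All 16 turns were in differences that did not pass as reported. For Th2 against Th0 these were Ccl1 at -0.28, Ccl3 at -0.50, Ccl4 at -0.42 and Xcl1 at -0.32 with only 12 to 24 h. With 1 time point left out, Th2 against Th0 ranged from -0.20 (without 4 h) to 0.24 for Ccl3, which was also below 0 without 8 h (-0.11), from -0.14 to 0.36 for Ccl4 and from -0.068 to 0.40 for Xcl1, the lowest values being those without 4 h. For Th1 against Th0 they were Ccl1 (-0.39) and Ccr8 (-0.10) with only 12 to 24 h and Ccl1 without 4 h (-0.10) or 8 h (-0.18, its range being -0.18 to 0.16). Between 24 h and 4 h Ccr8 ranged from -0.12 without Th0 to 0.36 without Th2. The hourly change of the Th2 against Th1 difference turned for Cxcl10 with a pseudocount of 0.1 (-0.0153) and, without 4 h, for Xcl1 (0.0101, range -0.0295 to 0.0101) and Ccr8 (0.0136, range -0.0253 to 0.0136). In Th1 against Th0, 1 of the 8 genes passed with only 12 to 24 h and between 0 and 3 when 1 time point was left out. For the hourly change, the 117 genes called became 68 without a filter, 358 with only the 12 libraries compared, and between 22 and 513 with 1 time point left out, and the 1 of the 8 became 2 with a mean of at least 5 RPKM, 3 with only the 12 libraries, and between 0 and 5 with 1 time point left out. With a mean of at least 5 RPKM, 646 genes passed between 4 h and rest. The cause of these changes was not tested.

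Quantile normalization moved the share of higher calls from 24.7% to 43.5% at 4 h against rest, from 42.3% to 54.0% at 24 h against rest and from 25.6% to 37.7% for the hourly change (37.1% under upper-quartile scaling), and it shifted the median of all genes by 0.11 and 0.17 in the comparisons with rest; median-of-ratios scaling shifted the latter by 0.14. Leaving out either resting library changed no call of Ccr4, Ccr8 or Cxcr3 against rest. The calls of the other receptors and ligands against rest were not followed in this way. No paired analysis was possible because in the labels only the resting libraries carry replicate numbers; the comparisons of conditions already hold the time point as a factor. With 1 library per condition and time, a value at a single time point has no replicate check, and Cxcl9 in Th2, at 0.12 to 0.70 RPKM, rests on 9 to 40 reads.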
